A study of Homo sapiens with 12 samples.

Results

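The SOXC genes SOX4, SOX11 and SOX12, the SOXD genes SOX5, SOX6 and SOX13 and the SOXE genes SOX8, SOX9 and SOX10 encode related transcription factors, and the open chromatin around them was read here from ATAC-seq peak lists of U2OS cells. The 9 genes were taken by name, out of 19974 protein-coding genes on chromosomes 1 to 22 and X by a rule that uses no measured value. They were chosen with earlier results of these data known. A peak belonged to a gene if it overlapped the gene or the 50 kb on either side of it on GRCh38. When the peaks of a set of lists were merged into regions, these windows held 306 of 276021 regions in the FOXA2 experiments and 108 of 102872 regions in the SOX2 experiments.

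ATAC-seq marks open chromatin by the insertion of sequencing adapters by the Tn5 transposase, and U2OS is a cell line from a human osteosarcoma, a bone tumour. Cells labelled wild type were compared with cells carrying a Tet-on (doxycycline-inducible) construct, either full-length FOXA2 or FOXA2 without its CTD, both Flag-tagged, in the FOXA2 set. The SOX2 set had its own wild type, full-length SOX2 and a fusion of SOX2 to the FOXA2 CTD. The design asks which chromatin opens when either factor is made and what the CTD of FOXA2 adds. Each of the 6 groups had 2 samples labelled as biological replicates, and the construct cells received doxycycline at 500 ng/ml for 4 days. For the wild types the treatment and genotype fields read NA although the protocol shared by all samples mentions doxycycline, so whether these cells received it is unknown. The wild type of the SOX2 set is labelled with the SOX2 cell line, and whether it was parental or uninduced cannot be told from that. The labels do not say whether a line was a clone or a pool. Each sample of the FOXA2 set had its own peak list, whereas the SOX2 set had 1 list a group, taken here as made from both of its samples.

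The lists were unlike in length and threshold. On chromosomes 1 to 22 and X they held 19862 and 25088 peaks in the libraries labelled wild type (replicates 1 and 2), 161136 and 57946 with full-length FOXA2, 78820 and 146854 with the CTD deletion, and 48142, 65628 and 75544 passing entries with wild type, SOX2 and fusion in the SOX2 set. Of these, 0.0917% to 0.119% lay in the 9 windows. Read depth is unknown, and the replicate 2 lists of labelled wild type and of full-length FOXA2 hold no mitochondrial peak, unlike the other 4 of the set. The FOXA2 gene itself had a peak at the same place in both labelled wild-type libraries of the FOXA2 set (percentiles 67.2 and 98.1 of their lists) as in the 4 construct libraries (98.9 to 99.9). In the SOX2 set the fusion had a peak there too, at 16.8, and wild type and SOX2 had none at that place. The wild-type libraries of the FOXA2 set are therefore called the libraries labelled wild type throughout. A peak stood at the start site or gene end of 2 to 7 of 10 mesenchymal and osteoblast markers per list, with SPARC in all 9 lists and TWIST1 and ALPL in none, and of 2 to 6 of 14 markers of other cell types, with SNAP25 in all 9 lists and PTPRC, CDH1, ALB, NEUROD1, GFAP and PECAM1 in none. The part of other cells in the results was not tested.

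SOX proteins bind a short DNA word through an HMG box that lies in the minor groove and bends the DNA, and SOX2, of the SOXB1 group, reads much the same word as the families described here. In cartilage, SOX9 switches on genes such as COL2A1 and ACAN together with SOX5 and SOX6, which have no activation domain of their own and pair through a coiled coil. SOX9 and SOX10 also act in the neural crest, where SOX10 sets up glia and pigment cells, and the SOXC proteins act in progenitors of neurons and mesenchyme. FOXA2 is a forkhead factor of endoderm and liver that can bind closed chromatin. The members are thus genes of the mesenchymal and neural crest lines, looked at in bone tumour cells given factors that belong largely to other lineages.

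The bases before the start sites are shown because the peak lists are read against these starts in what follows. They come from RefSeq promoters of GRCh38.p14, which hold 250 bases before to 50 bases after a start; 5 of the 9 genes matched, with 9 start sites. Only bases before a start and outside a neighbouring gene are given, 5′ to 3′ on the strand of the gene, and for SOX5 only those before its outermost end. Capitals mark words of 5 motifs searched on both strands. The FOXA motif was the word TGTTTAC or the word TGTTTGC. The SOX motif was the word ACAATGG, the word ACAAAGG, the word ACAATAG or the word ACAAAAG. AP-1 was the word TGAGTCA or the word TGACTCA, RUNX the word TGTGGTT or the word TGCGGTT, and TEAD the word GGAATG. No word of a motif lies within a word of another.
SOX6 outermost start, chr11:16738478-16738646, minus strand: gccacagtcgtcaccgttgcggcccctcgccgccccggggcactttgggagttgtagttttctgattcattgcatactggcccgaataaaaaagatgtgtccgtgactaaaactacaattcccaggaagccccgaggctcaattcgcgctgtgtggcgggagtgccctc
SOX6 internal start, chr11:16402864-16403113, minus strand: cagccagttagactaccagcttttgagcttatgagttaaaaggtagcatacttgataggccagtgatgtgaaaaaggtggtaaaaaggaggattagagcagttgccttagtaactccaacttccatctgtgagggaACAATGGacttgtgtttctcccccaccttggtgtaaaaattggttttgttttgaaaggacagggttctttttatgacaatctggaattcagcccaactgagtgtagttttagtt
SOX6 innermost start, chr11:16356547-16356796, minus strand: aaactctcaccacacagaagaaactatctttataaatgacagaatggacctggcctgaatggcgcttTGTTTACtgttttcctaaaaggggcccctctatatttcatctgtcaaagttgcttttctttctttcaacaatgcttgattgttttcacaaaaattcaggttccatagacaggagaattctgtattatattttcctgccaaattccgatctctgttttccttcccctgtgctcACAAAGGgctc
SOX5, chr12:24562651-24562741, minus strand: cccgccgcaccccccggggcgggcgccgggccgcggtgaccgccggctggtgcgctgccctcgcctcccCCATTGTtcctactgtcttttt
SOX12, chr20:325302-325551, plus strand: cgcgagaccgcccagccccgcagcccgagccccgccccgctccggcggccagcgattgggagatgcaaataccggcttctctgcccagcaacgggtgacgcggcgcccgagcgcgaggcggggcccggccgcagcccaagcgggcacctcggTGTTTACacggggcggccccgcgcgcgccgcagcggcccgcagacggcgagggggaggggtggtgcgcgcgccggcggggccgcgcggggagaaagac
SOX13, chr1:204072865-204073114, plus strand: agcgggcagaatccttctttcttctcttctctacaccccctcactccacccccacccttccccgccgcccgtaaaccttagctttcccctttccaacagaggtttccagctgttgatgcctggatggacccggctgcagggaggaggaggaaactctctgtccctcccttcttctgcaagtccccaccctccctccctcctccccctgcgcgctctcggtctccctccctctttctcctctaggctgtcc
SOX4, chr6:21593501-21593750, plus strand: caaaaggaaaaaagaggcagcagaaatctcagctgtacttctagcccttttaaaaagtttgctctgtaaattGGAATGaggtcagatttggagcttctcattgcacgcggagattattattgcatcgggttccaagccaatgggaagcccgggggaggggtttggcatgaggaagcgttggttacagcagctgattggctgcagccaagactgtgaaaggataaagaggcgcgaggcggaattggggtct

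A FOXA word stood in 2 of the 9 promoters, at position -98 from the start of SOX12 and -183 from the innermost start of SOX6, against 6.11% of all 22132 promoters of the same length. SOX words stood in 3 of 9, against 11.5% of all, namely before SOX5 and before the internal and innermost starts of SOX6. The internal start of SOX6 had ACAATGG at position -114 and no CpG in its 300 bases, and its GC content of 41.7% exceeded that of 8.21% of all promoters. SOX12 had 80.3% GC, above 97.0% of promoters. The lowest GC content of the 9 was 29.7%, at the SOX6 start at 16476388, above 0.244% of promoters. AP-1 words stood in 0 of 9 promoters (4.01% of all), RUNX words in 1 (5.57%) and TEAD words in 1 (12.2%). A match describes the letters only.

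**Figure D1:**
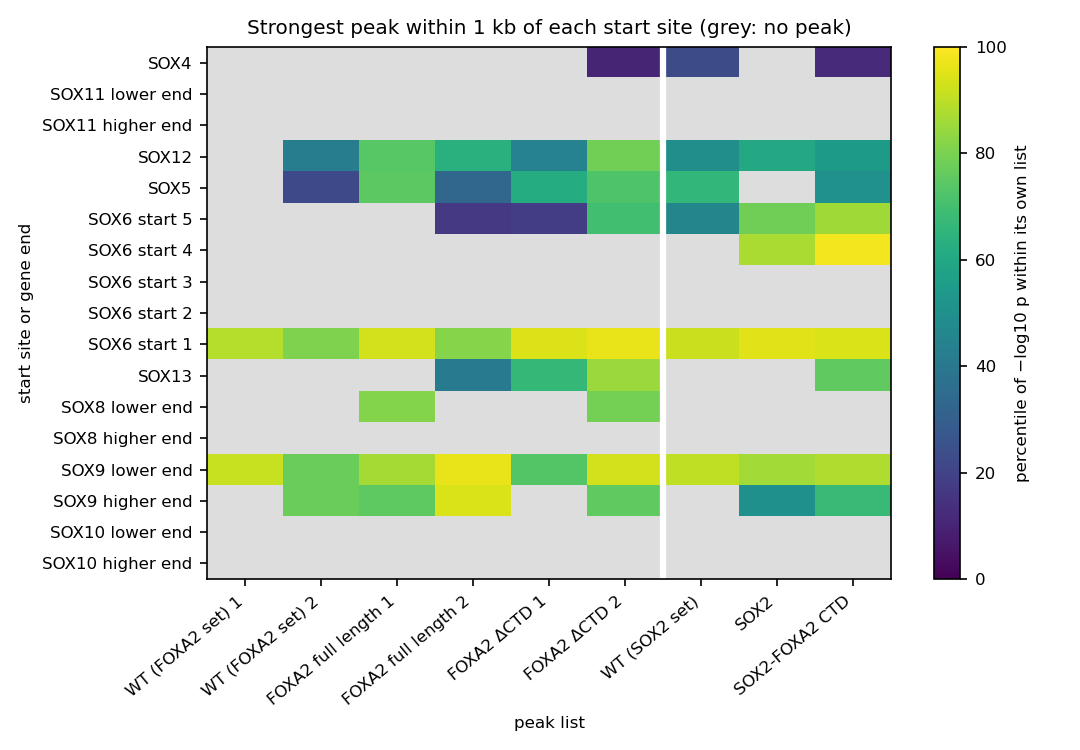
Percentile, by −log10 p within its own list, of the strongest peak within 1 kb of each start site, or of each gene end for SOX8, SOX9, SOX10 and SOX11, in the 9 peak lists; grey means no peak, and SOX6 starts are numbered from the outermost. SOX9 and the outermost SOX6 start have a peak in all 9 lists, SOX10 and SOX11 in none.

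Among the 9 genes, peaks at a start ranged from all 9 lists for SOX9 and SOX6 to none for SOX10 and SOX11. Peaks are described by their percentile, the share of the same list with a weaker −log10 p, so that 100 is the strongest peak of a list; lists of different length cannot be compared by it as a change. Across the lists 33.3% to 61.9% of 22132 start sites of coding genes had a peak within 1 kb. SOX9, the SOXE gene that directs cartilage formation, had a peak over its lower end, where the gene starts, in 9 of 9 lists. Its percentiles were 91.6 and 77.6 in the libraries labelled wild type, 86.4 and 96.7 with full-length FOXA2, 73.3 and 93.3 with the CTD deletion, and 90.4, 86.2 and 88.0 with wild type, SOX2 and fusion in the SOX2 set. The SOX9 values of the 3 groups of the FOXA2 set overlapped. The outermost start of SOX6 had a peak in 9 of 9 lists as well, at percentiles from 80.8 to 96.8, but this start is shared with C11orf58, which runs the other way.

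The other SOXD starts varied among the lists. SOX5 had a peak at its start in 7 lists, at 22 in labelled wild-type replicate 2, 74.8 and 33.1 with full-length FOXA2, 62.0 and 72.4 with the CTD deletion, 66.3 in the wild type of the SOX2 set and 50.5 with the fusion. Labelled wild-type replicate 1 and SOX2 lacked it, and SOX2 had an entry there that failed the IDR threshold, at 0.274 against a limit of 0.05 (the IDR, or irreproducible discovery rate, is low where the inputs of a list rank a peak alike). SOX13, a SOXD gene also known as an islet cell autoantigen, had a peak at its start in 4 lists: 40.8 in full-length replicate 2, 66.5 and 85.0 with the CTD deletion and 75.6 with the fusion. The innermost start of SOX6 was open in 6 lists, the 3 of the SOX2 set (45.8 with wild type, 78.3 with SOX2, 85.6 with the fusion) and 3 of the FOXA2 set (16.4 in full-length replicate 2, 18.3 and 69.9 with the CTD deletion). Its internal start was open in 2 lists, SOX2 (87.2) and the fusion (98.1). The SOX6 starts in between, at 16408856 and 16476388 on chromosome 11, had no peak in any list.

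SOXC and the remaining SOXE starts had peaks in 0 to 8 lists. SOX12 had a peak in 8 lists, at 41.8 in labelled wild-type replicate 2 and 44.3 to 78.8 in the construct libraries of the FOXA2 set, and labelled wild-type replicate 1 had none. SOX4, a SOXC gene that supports progenitor survival, had a weak one in 3 lists, at 10.2 in CTD deletion replicate 2, 23.1 in the wild type of the SOX2 set and 12.2 with the fusion. SOX8 had a peak at its lower end in full-length replicate 1 (81.5) and CTD deletion replicate 2 (79.2) alone. SOX10 and SOX11 had none at either end in any of the 9 lists. For SOX11 this sets the gene's ends apart from its body, where the region chr2:5695625-5697571, 4.21 kb above the lower end, was called in the wild type of the SOX2 set (70.9) and with SOX2 (74.5), and in the FOXA2 set it held peaks of labelled wild-type replicate 1 (20.5) and of all 4 construct libraries (22.1 and 40.8 with full-length FOXA2, 76.7 and 83.0 with the CTD deletion).

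**Figure D2:**
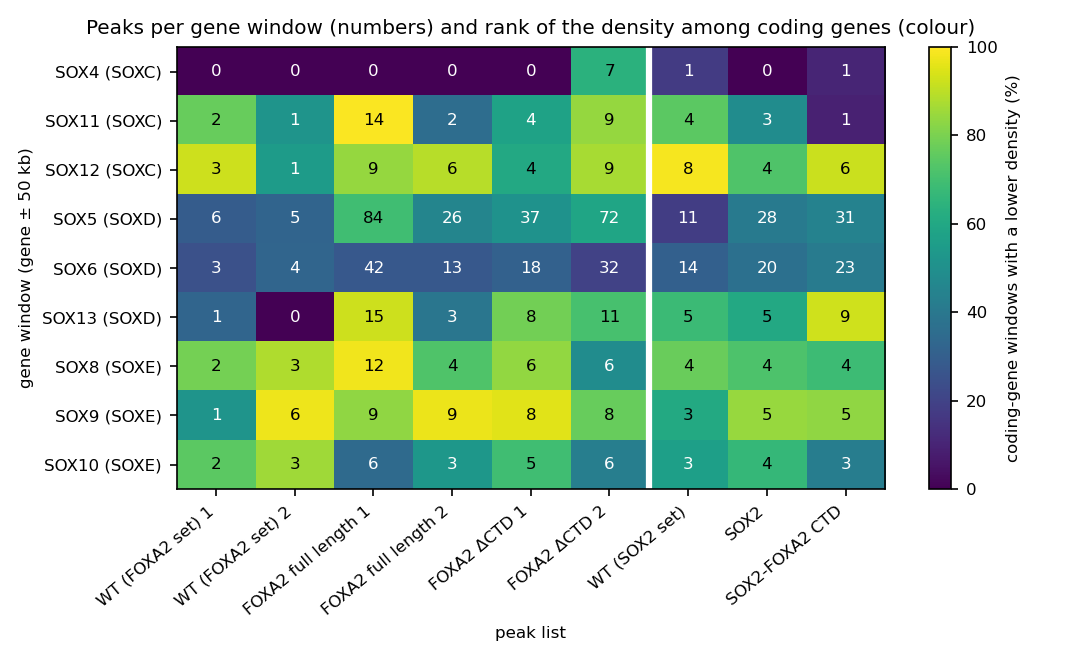
Number of peaks in the window of each gene (gene body plus 50 kb on each side) in each of the 9 lists, coloured by the share of protein-coding gene windows with a lower peak density in the same list; the white line parts the FOXA2 set from the SOX2 set. SOX5 has 5 or 6 peaks in the libraries labelled wild type and 26 to 84 with the FOXA2 constructs, and SOX4 has no peak in 6 of the 9 lists.

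Peaks per window depended on the length of the gene and of the list, so each density was ranked among the windows of all coding genes in the same list. Among the SOXC genes, SOX4 had no peak in its window in 6 lists and 7 in CTD deletion replicate 2, where the density exceeded that of 63.9% of coding windows. SOX12, the least studied SOXC gene, had 3 and 1 peaks in the libraries labelled wild type, 9 and 6 with full-length FOXA2, 4 and 9 with the CTD deletion, and 8, 4 and 6 with wild type, SOX2 and fusion. Its density exceeded that of 98.6% of coding windows in the wild type of the SOX2 set, the highest rank of SOX12 in any list. SOX11 ranged from 99.3% of coding windows in full-length replicate 1 (14 peaks) to 9.32% with the fusion (1 peak), and full-length replicate 2, of the same group as the highest, stood at 35.7% (2 peaks).

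Of the SOXD genes, SOX5 spans 1033 kb and SOX6 772 kb. SOX5 had 6 and 5 peaks in the libraries labelled wild type, 84 and 26 with full-length FOXA2, 37 and 72 with the CTD deletion, and 11, 28 and 31 with wild type, SOX2 and fusion. By rank among coding windows these were 29.0% and 32.3%, 69.3% and 45.6%, 51.1% and 58.8%, and 18.1%, 40.9% and 44.3%. SOX5 therefore ranked higher in all 4 construct libraries than in both libraries labelled wild type, and the FOXA2 constructs overlapped each other. SOX13 had 1 and 0 peaks in the libraries labelled wild type, 15 and 3 with full-length FOXA2, and 8 and 11 with the CTD deletion, and its ranks (32.8% and 0%, 92.4% and 39.3%, 78.5% and 70.8%) were also apart from those of the labelled wild type. SOX6 ranked low in every list, from 19.8% to 41.5%, and its groups overlapped. These 2 of 9 members whose rank was higher in both full-length libraries than in both labelled wild types stand beside 24.1% of 19974 coding windows; for the CTD deletion the same 2 members stand beside 25.0%. With 2 libraries against 2 the smallest two-sided p of an exact permutation test is 0.333, so no test was made.

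Among the SOXE genes, SOX10 was the member whose rank was lower in both construct libraries of each FOXA2 group than in both labelled wild types, which held for 18.3% of coding windows with full-length FOXA2 and 20.4% with the CTD deletion. Its window had 2 and 3 peaks in the libraries labelled wild type, 6 and 3 with full-length FOXA2, and 5 and 6 with the CTD deletion, so that its counts did not fall while the lists grew. SOX9 had 1 and 6 peaks, 9 and 9, and 8 and 8 in the same order, and 3, 5 and 5 in the SOX2 set; its rank reached 97.6% in labelled wild-type replicate 2 and 97.1% in full-length replicate 2. SOX8, which overlaps SOX9 and SOX10 in its roles in testis and crest, had from 2 to 12 peaks, all of them outside the gene. No member ranked higher or lower in both full-length libraries than in both CTD deletion libraries, against 16.5% and 16.3% of coding windows.

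With the same number of peaks taken from each list, the excess at SOX5 shrank in the FOXA2 set and stayed in the SOX2 set. With the strongest 19862 peaks of each list, SOX5 had 6 and 4 peaks in the libraries labelled wild type, 13 and 6 with full-length FOXA2, and 10 and 7 with the CTD deletion, so that full-length replicate 2 met labelled wild-type replicate 1. With the strongest 48142 passing entries of each list of the SOX2 set, SOX5 had 11 with wild type, 22 with SOX2 and 23 with the fusion. SOX6 had 14, 13 and 13 there. SOX12 had 8, 3 and 4 and SOX11 had 4, 2 and 1, so the SOXC windows held fewer entries with both SOX2 constructs than with wild type, whereas SOX9 had 3, 4 and 4.

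**Figure D3:**
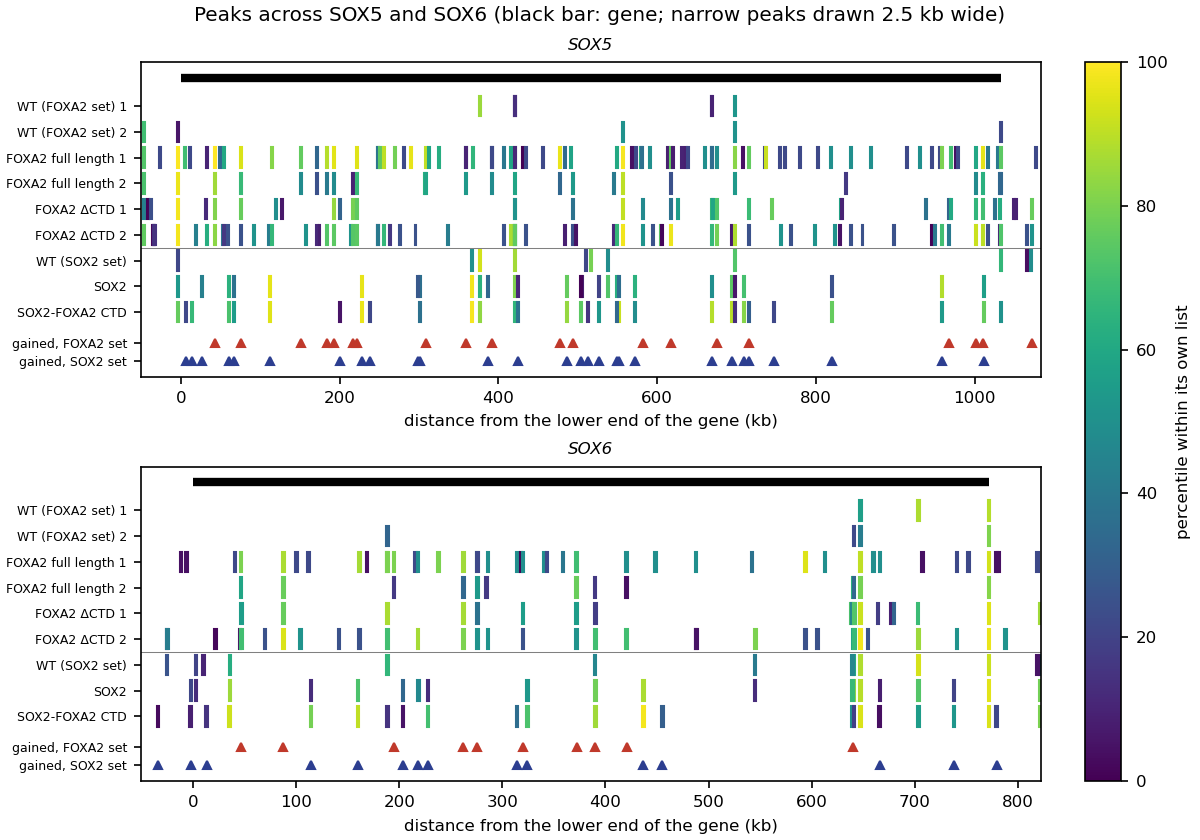
Peaks along SOX5 and SOX6 by distance in kb from the lower end of the gene (black bar), 1 row per list, coloured by percentile within the list; triangles mark regions gained in each set. In SOX6 the regions gained with full-length FOXA2 lie between 46.7 and 421 kb from the lower end, and those with the CTD deletion reach 640 kb. Those gained with SOX2 reach 738 kb and those with the fusion 779 kb. Over all 9 genes, 2 of the 41 member regions gained in the FOXA2 set (4.88%) were also gained in the SOX2 set, beside 14.5% of all regions so gained. These include the SOX13 start, which is not shown here.

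**Figure D4:**
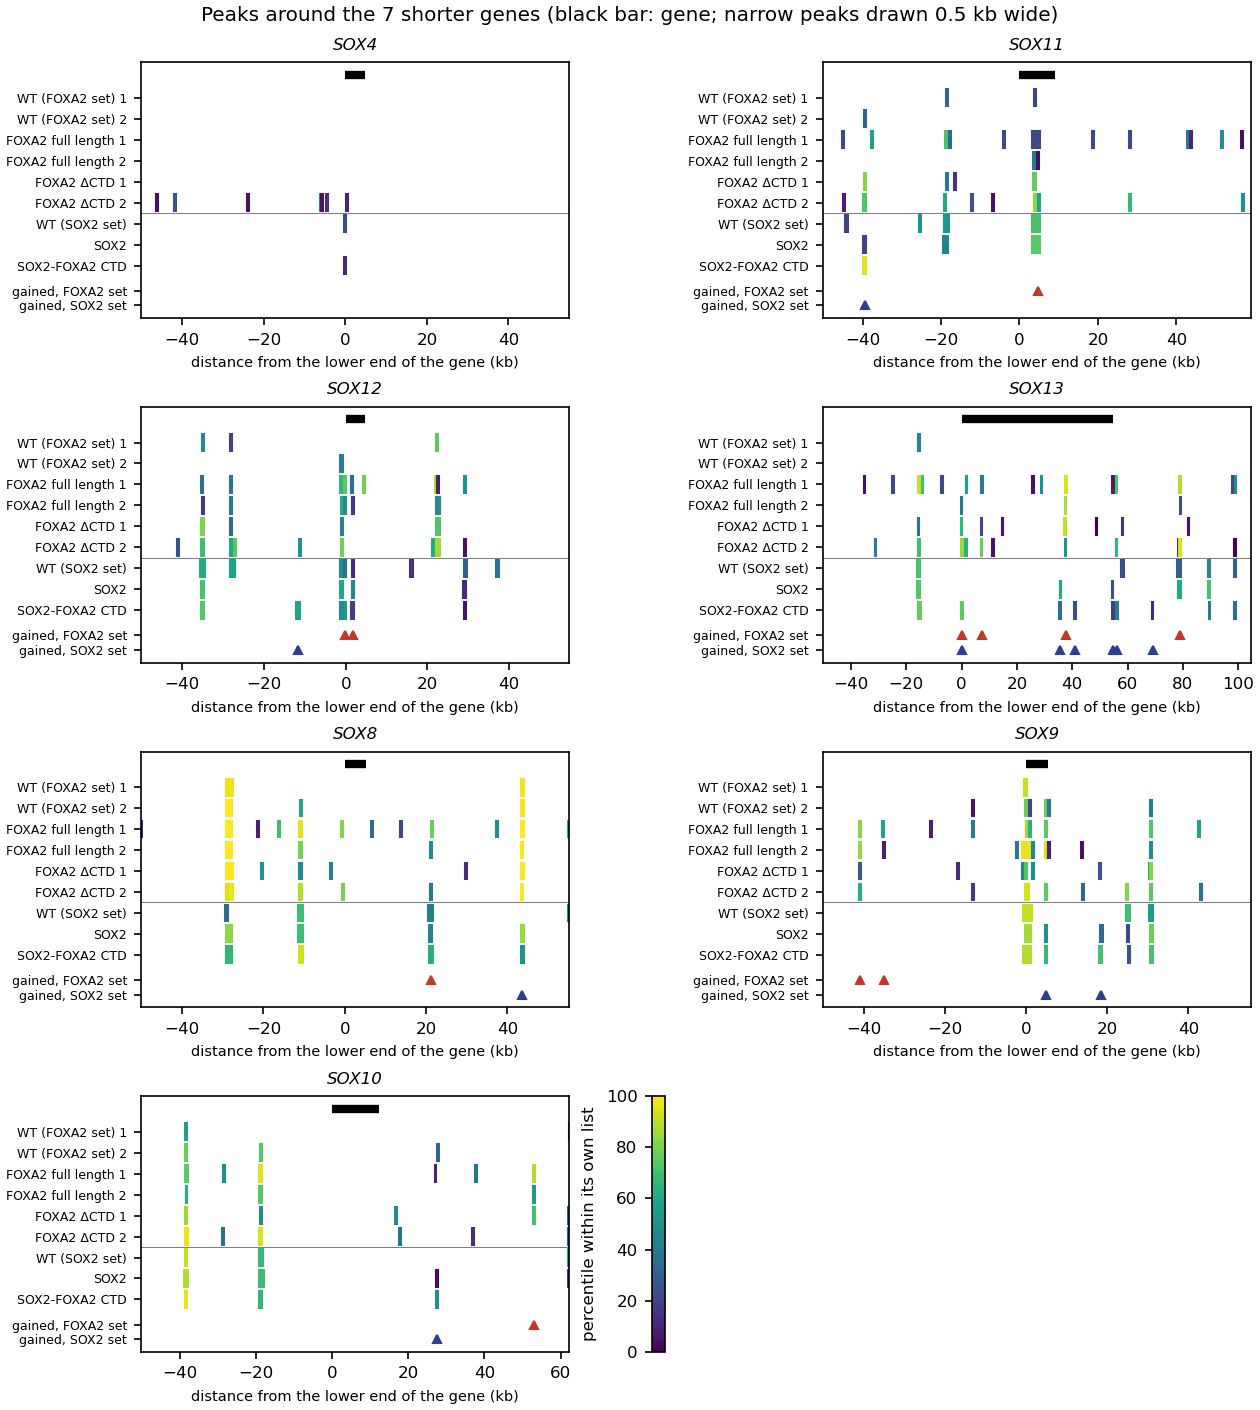
The same for the other 7 genes, with each window drawn to its own scale. The window of SOX4 has no peak in 6 of the 9 lists, and all peaks of the SOX8 window lie outside the gene.

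In the windows, 5 regions were called in all 9 lists, which is 1.44% of the 347 regions of the 9 lists in the windows and 2.08% of all regions. The SOX9 start, chr17:72120005-72122433, had a mean percentile of 87.1 over the lists, and the outermost SOX6 start, chr11:16737898-16739206, one of 90.9. Within SOX6, chr11:16612930-16614438, which also lies in LOC105376571, ranged from 41.8 in labelled wild-type replicate 2 to 98.2 in CTD deletion replicate 2. The remaining pair lies in neighbours of SOXE genes: chr16:952398-954203 in LMF1, 33.7 kb below the higher end of SOX8, and chr22:37933584-37934479 in MICALL1, 50.5 kb below the higher end of SOX10. The LMF1 region was at 97.1 to 99.8 in all 6 lists of the FOXA2 set and at 33.7, 82.8 and 66.3 with wild type, SOX2 and fusion.

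With full-length FOXA2, regions without a peak in labelled wild type were called around the genes at about the share of all regions. Most lay inside SOX5 and SOX6, which also held 143 and 61 of the 306 member regions. A region counted as gained if both construct libraries and neither library labelled wild type had a peak there. Of the 306 member regions, 29 were gained (9.48%), beside 9.06% of all regions of the set, and 0 were lost, beside 0.155% of all. SOX5 had 13 gained regions of 143, SOX6 had 7 of 61, SOX13, SOX12 and SOX9 had 2 each, SOX11, SOX8 and SOX10 had 1 each and SOX4 had 0 of 7. By family these were 22 of 227 in SOXD, 4 of 43 in SOXE and 3 of 36 in SOXC, so no family's share was far from that of all regions. Inside the gene bodies lay 24 of the 29.

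The strongest gained region was chr12:23572110-23573206, in SOX5 and 43.2 kb above its lower end. It stood at percentiles 99.7 and 85.6 with full-length FOXA2 and 80.9 and 82.7 with the CTD deletion, and no list of the SOX2 set had an entry there. In SOX13, chr1:204110334-204111065 stood at 94.2 and 87.2 with full-length FOXA2 and 91.1 and 51.5 with the CTD deletion, 37.6 kb above the start. SOX9 gained chr17:72079734-72080310, 46.4 kb below the higher end of the gene and inside SOX9-AS1 and LINC02097, at 82.2 and 83.9 with full-length FOXA2 and 27.1 and 63.1 with the CTD deletion. SOX6 gained chr11:16053776-16054629 at 87.2 and 77.2, and SOX5 a further region at chr12:23750703-23751447 at 95 and 67.5. All 5 had no entry in the wild type of the SOX2 set. The SOX5 region at chr12:23572110-23573206 was not gained when a peak had to cover at least 50% of the merged region, and the SOX9 and SOX6 regions were not gained with equal numbers of peaks.

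A pair of further regions shows how the calls divide. Below SOX5, chr12:23525266-23526124 stood at 99.6, 97.0, 98.2 and 98.2 in the 4 construct libraries and at 5.80 in labelled wild-type replicate 2, so it was not gained by the rule; it was chosen for mention after its values were seen. The wild type of the SOX2 set had a peak there at 21.4. In SOX11, the gained region chr2:5697000-5697449 stood at 22.1 and 3.91 with full-length FOXA2, was called in CTD deletion replicate 2 (59.3), and overlapped the peak of the wild type of the SOX2 set named above. Of the 29 gained regions, 5 (17.2%) had an entry in the wild type of the SOX2 set, beside 33.0% of all regions so gained. Without full-length replicate 2 the number gained would be 156 (51.0%, beside 48.3% of all regions). With the strongest 19862 peaks of each list it was 5 of 62 regions (8.06%, beside 7.52%).

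FOXA2 without its CTD gained member regions at a share near that of all regions, and SOXC genes had none. Of the 306 member regions, 26 were gained (8.50%), beside 8.72% of all regions, and 0 were lost, beside 0.0576% of all. SOX5 had 14, SOX6 had 8, SOX13 had 3 and SOX9 had 1, so SOXD held 25 of 227 (11%), SOXE 1 of 43 and SOXC 0 of 36. The strongest was the SOX6 region chr11:16053776-16054629, at 76.7 and 94.2 with the CTD deletion, followed by chr11:16228420-16229012 in SOX6 (86.6 and 80.2). In SOX5 the strongest were chr12:23572110-23573206, named above, chr12:24539493-24540315 (69.8 and 90.1) and chr12:23722181-23722789 (84.2 and 75.0). Every one of these 5 was also a gain with full-length FOXA2. With equal numbers of peaks the SOX6 region at chr11:16053776-16054629 alone of the 5 was gained with the CTD deletion, and the same held with the 50% overlap.

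Member starts were among the regions gained with the CTD deletion. The start of SOX13, chr1:204072744-204073511, was called in both CTD deletion libraries (66.5 and 85.0) and in full-length replicate 2 (40.8). The innermost start of SOX6, chr11:16356345-16356825, was called at 18.3 and 69.9 with the CTD deletion and at 16.4 in full-length replicate 2, and the wild type of the SOX2 set had a peak there (45.8). Of the 26 gained regions 8 (30.8%) had an entry in the wild type of the SOX2 set, beside 42.6% of all regions so gained. The number gained would be 125 without CTD deletion replicate 1 (40.8%, beside 42.4% of all regions) and 61 without replicate 2 (19.9%, beside 19.5%). With the strongest 19862 peaks of each list it was 2 of 62 regions (3.23%, beside 5.77%).

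The FOXA2 constructs were then set against each other. Both gained 14 of the member regions (4.58%, beside 4.29% of all regions), all of them in SOX5, SOX6, SOX13 and SOX9. With full-length FOXA2, 9 regions (2.94%) were gained that no CTD deletion library had, beside 1.65% of all regions, and 4 (1.31%) in the opposite case, beside 1.94%. The first group held 5 regions of SOX5, 2 of SOX12 and 1 each of SOX6 and SOX9, and the second held 4 of SOX5. The strongest of the first group was chr12:23837007-23838132 in SOX5, at 90.2 and 63.4, and that of the second was chr12:24601289-24601543, 1072 kb above the lower end of SOX5 and outside the gene, at 76.7 and 51.5.

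Next to the SOX12 start the full-length libraries had peaks that the CTD deletion libraries lacked. The merged region chr20:325111-325593 was called at 74.0 and 47.7 with full-length FOXA2 and in no other library of the set. The SOX12 bases shown above lie in it, but the peak of replicate 1 ends before the FOXA word and the start, and that of replicate 2 covers both. Just beside it, chr20:324274-324840 was called in all 4 construct libraries, at 65.9 and 63.4 with full-length FOXA2 and 44.3 and 78.8 with the CTD deletion, and in labelled wild-type replicate 2 (41.8). In the SOX2 set the wild type (38.1) and the fusion (54.4) had a peak over the start itself. Both constructs thus had a peak within 1 kb of the SOX12 start in both libraries, and full-length replicate 2 was the only library of the set with a peak over the start itself. Without full-length replicate 2 there would be 106 regions with full-length FOXA2 alone (34.6%, beside 33.1% of all), and without CTD deletion replicate 1 there would be 71 with the CTD deletion alone (23.2%, beside 27.7%). The former count was 14 without full-length replicate 1 or without CTD deletion replicate 2 (4.58%, beside 3.48% and 4.18%). The latter was 36 without CTD deletion replicate 2 (11.8%, beside 10.7%), and 8 without full-length replicate 1 or without replicate 2 (2.61%, beside 3.92% and 2.45%). None of the 13 was called so at equal numbers of peaks.

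In the SOX2 set, most regions gained with SOX2 lay within SOX5 and SOX6, and 7 of the 15 SOXC regions did not pass the IDR threshold where the wild type did. Each group had 1 list, so these comparisons have no replicate check. Of 108 member regions, 38 were gained with SOX2 (35.2%), beside 33.9% of all regions, and 19 were lost (17.6%), beside 17.0%. SOXD held 33 of the gains in 79 regions (41.8%), with 21 of 39 regions of SOX5, 10 of 29 of SOX6 and 2 of 11 of SOX13. SOXE gained 4 of 14 and SOXC 1 of 15. Of the losses, SOXC held 7 of 15 (46.7%), SOXD 11 of 79 and SOXE 1 of 14. All 7 SOXC losses had an entry with SOX2 that failed the threshold, at IDRs from 0.184 to 0.524, so 0 of the 15 SOXC regions was lost where absence needed no entry at any IDR.

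The strongest gains with SOX2 were in SOX5, at chr12:23757486-23758194 (96.2 with SOX2 and 96.8 with the fusion) and chr12:23640646-23641269 (96.1 and 95.1). Neither had an entry at any IDR in the wild type, and neither had a peak in any list of the FOXA2 set. A further SOX5 gain, chr12:24487543-24488580, stood at 88.3 with SOX2 and 54.0 with the fusion. SOX6 gained its internal start, chr11:16402636-16403723, at 87.2; its bases before the start, shown above, hold the word ACAATGG, and the wild type had an entry there that failed at an IDR of 0.526. The gain at chr16:1025137-1025799, 43.7 kb above the lower end of SOX8 and in LOC102723753, was at 84.8, but the wild type had an entry with an IDR of 0.0953 and all 6 lists of the FOXA2 set had it at 97.6 to 99.6. SOX9 gained regions at 4.84 kb and 18.6 kb above its lower end, at 50.2 and 34.4. Of the 4 SOXE gains with SOX2, 3 had an entry in the wild type that failed the threshold, at IDRs from 0.0927 to 0.526.

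Among the regions lost with SOX2, chr12:24045567-24046410 in SOX5 was the strongest in the wild type, at 79.5. The SOX5 start, chr12:24561510-24563571, was lost with SOX2 and kept with the fusion (66.3 in the wild type, 50.5 with the fusion). In SOX6, chr11:16154660-16155936 was lost from 65.8. SOX12 lost 4 of 9 regions, SOX11 2 of 5 and SOX4 its only region, the weak start, each with such a failed entry. In 13 of the 19 lost regions (68.4%, beside 65.8% of all lost regions) SOX2 had an entry that failed the IDR threshold, and in 12 of the 38 gained regions (31.6%, beside 37.4%) the wild type had one. Counting a region as absent only where there was no entry at any IDR left 26 gained (24.1%, beside 21.2% of all) and 6 lost (5.56%, beside 5.80%), the lost ones all in SOXD. The internal SOX6 start and the SOX8 region were then not gained, and the SOX5 start was not lost.

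With the SOX2-FOXA2 CTD fusion, most gained regions again lay in SOX5 and SOX6, which also held 39 and 29 of the 108 member regions. Of the 108 member regions 51 were gained (47.2%), beside 43.7% of all, and 20 were lost (18.5%), beside 17.1%. SOX5 had 25, SOX6 14 and SOX13 6 of the gains, so SOXD held 45 of 79 (57.0%); SOXE had 4 of 14 and SOXC 2 of 15. Losses were 7 of 15 in SOXC, 5 of them with a failed entry, 12 of 79 in SOXD, 9 of them with one, and 1 of 14 in SOXE, with one. The strongest gain was the internal SOX6 start at 98.1, rank 1429 of 75544 entries, followed by the SOX5 regions at 228 kb and 111 kb named for SOX2. SOX11 gained chr2:5652583-5653224, 48.5 kb below the higher end of the gene and in LINC01248, at 95; SOX2 had it at 20, the wild type had an entry with an IDR of 0.0834, and in the FOXA2 set it was called in labelled wild-type replicate 2 (32.1) and with the CTD deletion (81.4 and 72.7). In SOX5, chr12:24081350-24082282 was at 91.8 with the fusion and 35.8 with SOX2.

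The fusion lost the SOX11 region inside the gene, chr2:5695625-5697571, which stood at 70.9 in the wild type and 74.5 with SOX2 and had a failed entry with the fusion at an IDR of 0.343. SOX11 lost 4 of its 5 regions and gained the remaining one. The SOX5 region chr12:24045567-24046410 was lost here too, with a failed entry at 0.511, and near SOX10 chr22:38034191-38034965, at POLR2F-AS1, was lost from 62.3, with one at 0.309. With equal numbers of entries 33 of 92 regions were gained (35.9%, beside 31.1% of all) and 27 lost (29.3%, beside 31.1%). Counting only regions with no entry at any IDR as absent left 35 gained (32.4%, beside 31.4%) and 5 lost (4.63%, beside 4.28%), without the internal SOX6 start and the SOX11 region among the gains or the losses just named.

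**Figure D5:**
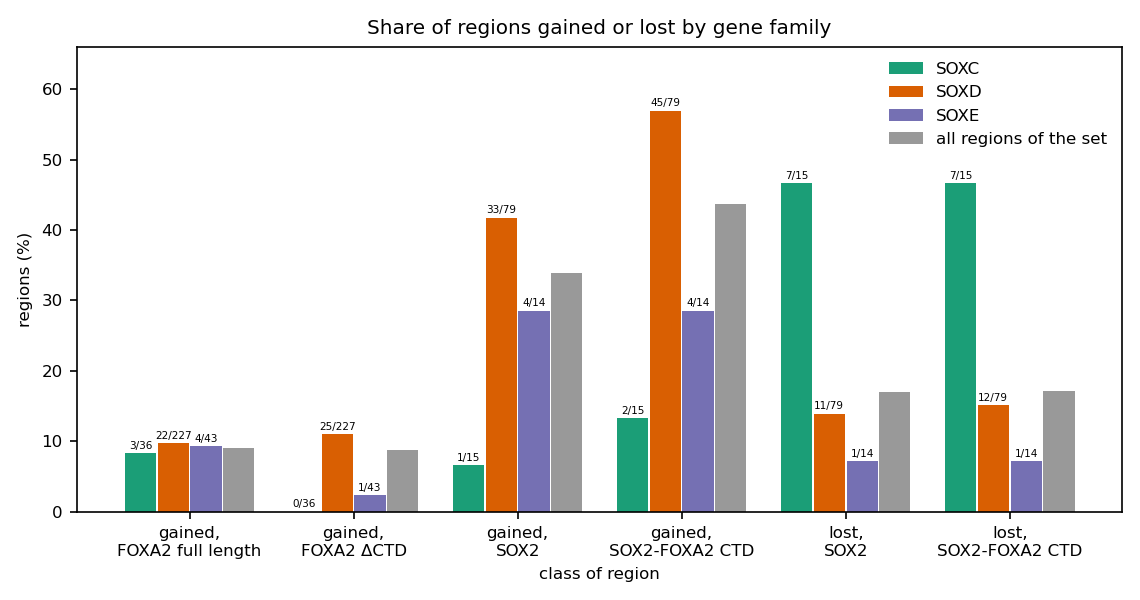
Share of the regions in the SOXC, SOXD and SOXE windows that were gained or lost in each comparison, with the counts above the bars, and in grey the share over all regions of the same set. SOXD bars stand above the grey bar for gains with SOX2 (33 of 79) and with the fusion (45 of 79), and SOXC bars stand above it for losses (7 of 15 each, of which 7 with SOX2 and 5 with the fusion had an entry that failed the IDR threshold).

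SOX2 and the fusion share their wild-type list, so their gains are given side by side. Both gained 34 member regions (31.5%, beside 24.2% of all regions) and both lost 13 (12%, beside 12.2%). With SOX2, 4 regions (3.70%) were gained that were not called with the fusion, beside 9.72% of all, 3 in SOX5 and 1 in SOX6; the strongest was chr11:16184598-16185171 in SOX6, at 46.9. All 4 had a failed entry with the fusion, as did 90.9% of all such regions. With the fusion, 17 (15.7%) were gained that were not called with SOX2, beside 19.5% of all: 7 in SOX5, 5 in SOX6, 4 in SOX13 and 1 in SOX12. Of these, 14 had a failed entry with SOX2 (82.4%, beside 74.0%). The strongest was the SOX13 start, chr1:204072801-204073594, at 75.6 with the fusion, where SOX2 and the wild type had failed entries at IDRs of 0.350 and 0.356. The same SOX13 start was called in both CTD deletion libraries, as given above.

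Few member regions were gained in both sets. Of 41 member regions gained with a FOXA2 construct, 2 (4.88%) were also gained in the SOX2 set, beside 14.5% of all regions so gained. These were the SOX13 start and chr12:24244720-24245614 in SOX5. The SOX5 region stood at 68.1 and 25.2 with the CTD deletion, at 76.1 in full-length replicate 1 and at 29.8 with the fusion. Of the 41, 10 (24.4%) had a passing entry in any list of the SOX2 set, beside 38.3% of all. From the other side, 2 of 55 regions gained with a SOX2 construct (3.64%) were gained in the FOXA2 set, beside 9.82% of all, and 18 (32.7%) had a peak in any of its lists, beside 37.5%. The sets differ in how their lists were made, and the part of this in the overlap was not tested.

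Most gained regions lay in the body of the gene. Of all member regions, 65.4% of the FOXA2 set and 63.9% of those of the SOX2 set overlapped the body of the gene, which makes up 67.9% of the windows. Of the regions gained, 24 of 29 with full-length FOXA2, 24 of 26 with the CTD deletion, 33 of 38 with SOX2 and 41 of 51 with the fusion lay in the body, most of them in SOX5 and SOX6. Of the lost regions, 7 of 19 with SOX2 and 7 of 20 with the fusion did. With SOX5 and SOX6 left out, the 7 shorter genes had 9 gained regions of 102 with full-length FOXA2 (8.82%), 4 with the CTD deletion (3.92%), and, of 40, 7 with SOX2 (17.5%) and 12 with the fusion (30%), with 10 lost in each of these comparisons (25%). The shares over all regions are those given with each comparison. By count, the gains of the members therefore rest largely on the long genes SOX5 and SOX6. These genes also held most member regions, 143 and 61 of 306 in the FOXA2 set and 39 and 29 of 108 in the SOX2 set.

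Genes linked to the action of the SOXC, SOXD and SOXE factors were counted in the same kind of window. The 25 genes held 345 regions in the FOXA2 set, of which 36 were gained with full-length FOXA2 (10.4%, beside 9.06% of all regions), 21 with the CTD deletion (6.09%, beside 8.72%) and 1 lost with full-length FOXA2 (0.290%, beside 0.155%). In the SOX2 set they held 148 regions: SOX2 had 46 gains (31.1%, beside 33.9% of all) and 24 losses (16.2%, beside 17.0%), the fusion 54 gains (36.5%, beside 43.7%) and 28 losses (18.9%, beside 17.1%). The same shares over all regions apply to the classes of these genes. The 10 cartilage genes, among them COL2A1 and ACAN, gained 21 of 168 regions with full-length FOXA2 (12.5%), 10 with the CTD deletion (5.95%), and 25 and 28 of 71 with SOX2 and the fusion (35.2% and 39.4%). The 12 neural crest and glia genes gained 13 of 151 (8.61%) and 11 (7.28%), and 17 and 25 of 66 (25.8% and 37.9%). The 3 genes of neurons and progenitors gained 2 of 26 (7.69%) with full-length FOXA2 and 0 with the CTD deletion, and 4 of 11 with SOX2 (36.4%) and 1 with the fusion (9.09%). Of the cartilage genes, COL11A1, a cartilage collagen that spans a long window, gained 6 of 37 regions with full-length FOXA2 and 3 with the CTD deletion. It gained 6 of 14 with SOX2 and 8 with the fusion. MITF, of the neural crest class, also gained 6 with full-length FOXA2, of 31 regions, and 5 with the CTD deletion. In the SOX2 set it gained 0 of 8 with SOX2 and 2 with the fusion. ACAN, the core protein of cartilage aggrecan, had the most losses of the 10 cartilage genes. It lost 6 of 16 regions with SOX2 and 5 with the fusion, beside 17.0% and 17.1% of all regions. Of all regions so lost, 65.8% and 75.0% had an entry that failed the IDR threshold. How many of the ACAN losses had one is not given here.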

How the data were processed

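ATAC-seq peak lists of 12 U2OS samples in 6 groups of 2 were analysed: 6 lists, 1 per library, in the FOXA2 set, and 3 lists in the SOX2 set, 1 per group. The submitters' processing notes name FastQC 0.10.1, Trim Galore, Bowtie2 2.4.4, SAMtools 0.1.18, MACS2, deepTools 2.4.1 and build hg38, with no role or order; read shifting, duplicate removal and the thresholds of most lists are not given in the sources used here. In the deposited lists each peak carries the authors' score, fold enrichment (a ratio), −log10 p and summit position. The SOX2 lists, as deposited, also carry IDR scores from 2 inputs, taken to be the samples of the group. The lowest −log10 p was 2.01 to 5.43 across the FOXA2 lists, read depth is unknown, and no interval on a value could be given.

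Computed here (Python 3.11.15, pandas 2.3.3): peaks on chromosomes 1 to 22 and X, for the SOX2 lists at an IDR of at most 0.05, were merged within each set, and a region was called in a list with at least 1 bp of overlap. Percentiles rank −log10 p within a list. Comparisons are counts with no test: the lists hold no read counts, the SOX2 set has 1 list a group, and an exact permutation test of 2 libraries against 2 cannot give a p below 0.333. The p-value columns were used for ranks and for the common threshold tried as an alternative. The counting was tested on simulated lists. Regions named are those at starts, in all 9 lists, and per comparison up to 5 gained and 3 lost with the highest mean percentile; a few others are named as examples, chosen after their values were seen. The members and lists of genes were chosen with earlier results of these data known. Motifs were to be counted around summits; with no genome used here they were counted in RefSeq promoters (GRCh38.p14). Gene positions are RefSeq's, without strand or exons, so SOX8, SOX9, SOX10 and SOX11 were read at both gene ends, and the FOXA2 and SOX2 label check used the whole gene. Alternatives were equal numbers of peaks, a common threshold, other overlaps, windows and IDR limits, and leaving out each library.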

Additional observations from a re-analysis of the deposited data

How the results depend on the processing

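The main counts, in the order full-length FOXA2 gained, CTD deletion gained, full-length alone and CTD deletion alone, were 29, 26, 9 and 4, with 0 lost. They were 5, 2, 0 and 0 of 62 regions with equal numbers of peaks (8.06%, 3.23%, 0% and 0%, beside 7.52%, 5.77%, 2.74% and 1.86% of all regions), with 2 lost with full-length FOXA2 (3.23%, beside 4.28%). At a common −log10 p of 5.43 they were 17, 9, 7 and 1 of 99 (17.2%, 9.09%, 7.07% and 1.01%, beside 15.1%, 7.63%, 6.27% and 1.37%). Where 1 library was enough they were 168, 160, 111 and 103 of 306 (54.9%, 52.3%, 36.3% and 33.7%, beside 51.6%, 53.2%, 34.9% and 36.5%). Full-length gains were 18 at 50% overlap (5.88%, beside 6.01%). Within the lists with mitochondrial peaks, 167 were gained (54.6%, beside 51.4%) and 3 lost with full-length FOXA2 (0.980%, beside 1.55%). In these lists 106 were full-length alone (34.6%, beside 33.3%) and 10 CTD deletion alone (3.27%, beside 2.77%). With the CTD deletion 2 were lost (0.654%, beside 0.752%). Leaving out 1 library gave 34 to 156 (11.1% to 51.0%, beside 10.1% to 48.3%) and 37 to 125 (12.1% to 40.8%, beside 10.1% to 42.4%). Alone were 9 to 106 (2.94% to 34.6%, beside 1.68% to 33.1%) and 5 to 71 (1.63% to 23.2%, beside 2.07% to 27.7%). Lost were 0 to 3 (at most 0.980%, beside 0.299% to 1.27%) and 0 to 2 (at most 0.654%, beside 0.150% to 1.27%). Blocking by replicate cannot change a rule that asks for both construct libraries and neither library labelled wild type. Its counts of 29, 26, 9 and 4 are therefore no check. In the SOX2 set the counts of SOX2 gained and lost, fusion gained and lost, SOX2 alone and fusion alone were 38, 19, 51, 20, 4 and 17. With entries of any IDR they were 62, 31, 90, 25, 8 and 36 of 204 regions (30.4%, 15.2%, 44.1%, 12.3%, 3.92% and 17.6%, beside 31.9%, 15.6%, 43.3%, 14.1%, 8.28% and 19.7% of all). Equal numbers gave 33 fusion gains of 92 (35.9%, beside 31.1%). Where absence needed no entry at any IDR, 6 and 5 were lost (5.56% and 4.63%, beside 5.80% and 4.28%). There 0 and 1 were alone (0% and 0.926%, beside 0.562% and 4.57%). Within gene bodies 7 of 69 were lost in each comparison (10.1%, beside 17.0% with SOX2 and 17.1% with the fusion). SOX2 alone was 7 of 110 with 200 bp peaks (6.36%, beside 11.5%) and 8 of 141 with 100 kb flanks (5.67%, beside 9.72%). Further alternatives were chosen after seeing the data. The 7 shorter genes gave 9, 4, 3 and 0 of 102 in the FOXA2 set (8.82%, 3.92%, 2.94% and 0%, beside 9.06%, 8.72%, 1.65% and 1.94%). In the SOX2 set they gave 7, 10, 12, 10, 0 and 5 of 40 (17.5%, 25%, 30%, 25%, 0% and 12.5%, beside 33.9%, 17.0%, 43.7%, 17.1%, 9.72% and 19.5%). Counting the wild type of the SOX2 set too left 24 and 18 FOXA2 gains (7.84% and 5.88%, beside 6.07% and 5.01%). The cause was not tested.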
